A study of Homo sapiens with 8 samples.

Results

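The Kruppel-like factors (KLFs) are zinc-finger transcription factors that bind GC-rich and CACCC-containing DNA. Rows were taken for 10 of them by gene symbol, KLF2, KLF3, KLF4, KLF5, KLF6, KLF7, KLF10, KLF11, KLF13 and KLF16, out of 20344 genes listed in either of the study's 2 tables. The density table holds 9 of these 10 among its 19472 genes and the knockdown table holds all 10 among its 19551 genes. KLF2 at low and high density was not analysed here.

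RNA was sequenced from H9 human embryonic stem cells (hESCs), an established line, in 2 experiments. In the first, H9 cells with no hairpin named in the labels were grown either at low density or crowded on small Matrigel islands that limit the area available for adhesion (hereafter low and high density), with 2 libraries each. In the second, H9 cells carried either a control short hairpin RNA (shControl) or a hairpin against ETV4 (shETV4, hereafter ETV4 KD), also with 2 libraries each. ETV4 is an ETS-family transcription factor that the study examined as a link between crowding and gene expression. The sources used here do not name the ETV4 hairpin, nor say whether the pair of knockdown libraries had a common one. The study states in general terms that its experiments were repeated independently, but the sources used here do not say so of these libraries, so the p-values measure the spread between them, which may be technical. Total counts per library were 50359703 and 59957148 for low density, 55365694 and 62410168 for high density, 55028105 and 52155822 with shControl and 56630652 and 52790532 with shETV4.

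All KLFs share a carboxy-terminal DNA-binding domain and differ in the amino-terminal part that recruits partners. KLF2, KLF4, KLF5, KLF6 and KLF7 mostly act as activators, KLF3 represses through the CtBP corepressors, and KLF10, KLF11, KLF13 and KLF16 recruit the SIN3A corepressor. In pluripotent cells KLF4 and KLF5, together with KLF2 in the mouse, are known for sustaining the naive state and KLF4 for reprogramming, and in endothelium KLF2 and KLF4 are known to be induced by fluid shear through the MEKK3-ERK5-MEF2 pathway.

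The knockdown was seen in the counts of its target. ETV4 stood at 90.8 and 95.1 FPKM (fragments scaled to transcript length and sequencing depth) with shControl and at 45.6 and 40.9 FPKM with shETV4, a log2 fold change of -1.15 ± 0.07 (standard error, SE) with an adjusted p of 1.60e-04 by edgeR's quasi-likelihood test. ETV4 thus remained at a measurable level after knockdown. At high density it was at 54.2 and 53.9 FPKM against 73.2 and 72.6 FPKM at low density, a log2 fold change of -0.49 ± 0.06. Differentially expressed genes (DEGs) had to pass an adjusted p of 0.05 and to move by more than 0.5 on the log2 scale in either direction, so ETV4 at high density, with an adjusted p of 9.42e-07, falls just short on size. The ETV4 gene overlaps DHX8, which runs on the other strand, and the sources used here do not state that reads were counted by strand.

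The stem cell label was checked against 12 core pluripotency markers, all of which had a mean of at least 1 FPKM in both control groups. POU5F1, which encodes OCT4, was the most abundant of them, with a mean of 1102 FPKM over the density libraries and 1223 FPKM over the knockdown libraries. The summed level of the 7 mesendoderm markers in the density table was between 1.05 and 4.81 FPKM in any library, that of the 7 neuroectoderm markers between 1.36 and 2.21 FPKM, and that of the 4 trophectoderm and amnion markers between 3.04 and 4.45 FPKM. In the knockdown table the corresponding sums, over 5, 7 and 5 markers, were 1.52 to 3.23, 0.988 to 2.43 and 3.75 to 7.05 FPKM. Means below 0.1 FPKM were found for 4, 4 and 1 of these markers in the density table and for 2, 4 and 2 in the knockdown table. Endothelial markers summed to 43.2 to 55.7 FPKM in the density table and 46.9 to 56.5 FPKM in the knockdown table, with KDR, a VEGF receptor, the most abundant over all libraries of each table (mean 28.8 and 23.6 FPKM).

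KLF16, a SIN3A-binding factor first studied on dopamine receptor promoters, was the most abundant member in every group. Its mean was 15.1 FPKM at low density, 34.1% of the summed FPKM of the 9 members, and 10.6 FPKM with shControl, 22.4% of the sum of the 10. At low density KLF10 (7.51), KLF13 (5.25), KLF3 (4.23), KLF6 (4.09), KLF7 (3.29), KLF11 (2.29), KLF4 (1.74) and KLF5 (0.644 FPKM) followed in that order, and the libraries of no neighbouring pair in this order overlapped. At high density the order was KLF16, KLF13, KLF10, KLF6, KLF3, KLF11, KLF7, KLF4 and KLF5, again with no overlap between neighbours. KLF13 thus stood above KLF10 and KLF11 above KLF7 in crowded hESCs, and the reverse held at low density. With shControl the order was KLF16, KLF10, KLF13, KLF6, KLF3, KLF7, KLF11, KLF5, KLF4 and KLF2, with no overlap between neighbours. With shETV4 KLF3 (7.12 FPKM) took the third place and KLF4 (2.31 FPKM) the seventh, while KLF13 and KLF7, and likewise KLF4 and KLF11, overlapped.

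KLF2 was near the lower limit of detection. It had 15 and 8 reads with shControl and 12 and 23 reads with shETV4, which gave 0.0821, 0.0479, 0.0658 and 0.136 FPKM. The other members had between 134 and 4004 reads in any density library and between 148 and 3351 in any knockdown library. The summed FPKM of the 9 members moved little with density, from 42.9 and 45.3 at low density to 45.5 and 44.4 at high density, and the sum of the 10 was 47.3 and 47.0 with shControl against 51.0 and 52.1 with shETV4. In bulk RNA a lower level in every cell and fewer cells with that level cannot be told apart.

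**Figure D1:**
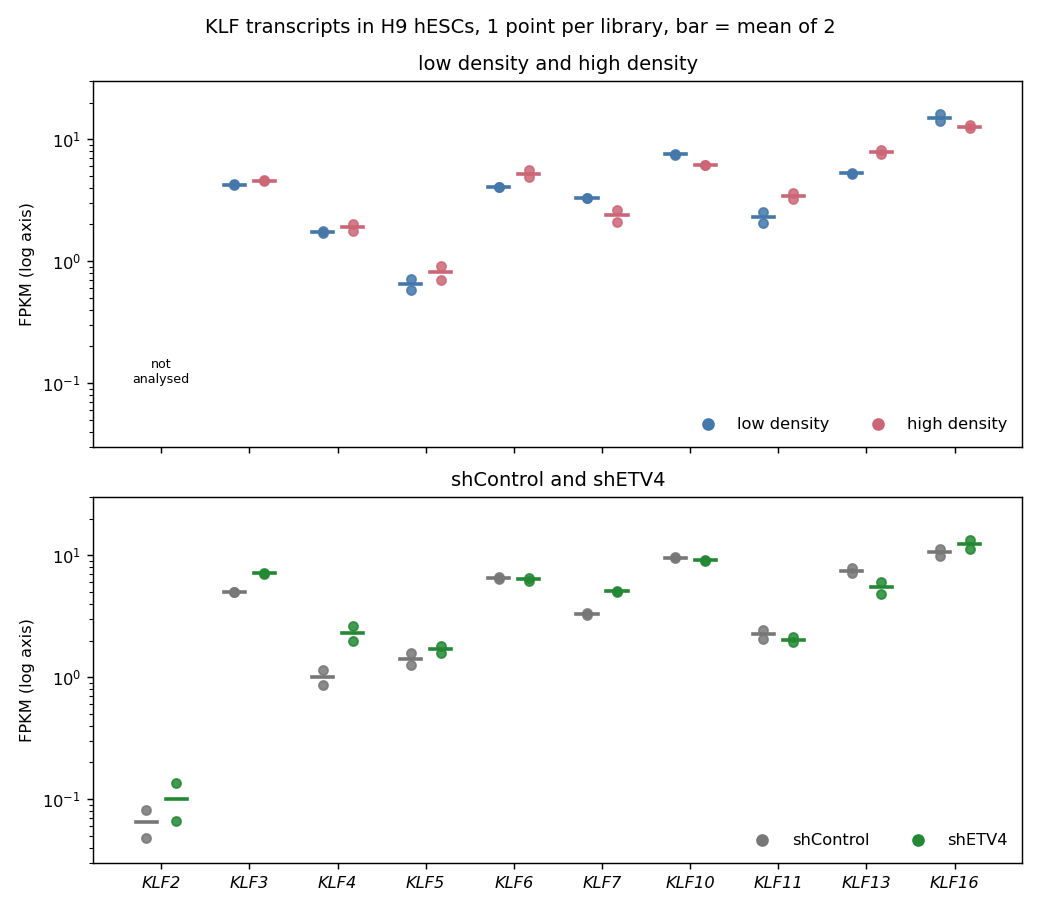
FPKM on a log axis of each KLF member in each library, low and high density above, shControl and shETV4 below, with 1 point per library and a bar at the mean of 2 libraries. KLF16 lies highest in every group (means 10.6 to 15.1 FPKM), KLF4 moves up with shETV4 (1.01 to 2.31 FPKM), and KLF2 lies lowest in the knockdown experiment (0.0650 and 0.101 FPKM).

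Of the members called below, KLF4, KLF7, KLF11 and KLF13 have promoter sequences shown here, while no entry was used for KLF3, which is also called. The sequences are shown because they hold the GC-rich elements that KLFs and the related SP factors bind. Each is the 250 bases before an annotated start site in RefSeq (GRCh38.p14), 5′ to 3′ on the gene's strand, with GGGCGG (GC box) and CACCC matches on either strand in capitals. KLF4 is at chr9:107489770-107490019 on the minus strand, KLF7 (the first listed of 4 start sites) at chr2:207165949-207166198 on the minus strand, KLF11 (the first of 2) at chr2:10043579-10043828 on the plus strand and KLF13 at chr15:31326585-31326834 on the plus strand.
KLF4: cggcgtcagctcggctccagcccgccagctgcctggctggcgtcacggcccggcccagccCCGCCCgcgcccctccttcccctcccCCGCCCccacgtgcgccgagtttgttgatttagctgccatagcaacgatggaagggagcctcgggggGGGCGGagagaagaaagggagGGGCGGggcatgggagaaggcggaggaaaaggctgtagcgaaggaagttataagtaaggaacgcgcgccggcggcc
KLF7: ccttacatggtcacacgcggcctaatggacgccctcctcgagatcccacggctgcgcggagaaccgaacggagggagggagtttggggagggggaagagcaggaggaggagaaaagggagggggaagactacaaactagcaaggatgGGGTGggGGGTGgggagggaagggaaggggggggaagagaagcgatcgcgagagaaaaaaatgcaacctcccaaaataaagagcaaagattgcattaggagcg
KLF11: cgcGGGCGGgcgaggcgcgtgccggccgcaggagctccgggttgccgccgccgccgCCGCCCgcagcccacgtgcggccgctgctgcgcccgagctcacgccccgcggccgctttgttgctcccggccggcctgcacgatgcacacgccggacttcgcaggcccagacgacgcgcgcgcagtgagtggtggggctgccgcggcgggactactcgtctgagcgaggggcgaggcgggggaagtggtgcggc
KLF13: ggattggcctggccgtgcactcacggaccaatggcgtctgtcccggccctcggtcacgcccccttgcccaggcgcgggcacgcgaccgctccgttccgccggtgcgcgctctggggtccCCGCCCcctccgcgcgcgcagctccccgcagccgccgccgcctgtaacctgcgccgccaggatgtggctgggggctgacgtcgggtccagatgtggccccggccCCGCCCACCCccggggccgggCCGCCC
The KLF4 window holds 4 GC boxes, the KLF13 window 3 GC boxes and 1 CACCC match that overlaps a GC box, the KLF11 window 2 GC boxes and the KLF7 window 2 CACCC matches and no GC box. Windows were matched by symbol for 8 of the members, 13 windows in all, with no entry used for KLF3 and KLF10.

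A GC box was found in at least 1 window of all 8 genes and in 9 of the 13 windows, against 42.6% of 35116 promoters of the same length. CACCC was found in 6 of the 13 windows, from 4 genes, against 54.7% of all promoters. CCGGAAG, a core that ETS factors such as ETV4 bind, was in none of the 13 windows, against 8.52% of all promoters. TGACGTCA, the cyclic AMP response element, was in 1 KLF11 window (1.65% of all promoters), and the serum response factor's CArG box, searched by its consensus, in 1 KLF7 window (1.16%). The GC content of the members' windows ranged from 40.8% to 86.4% with a median of 72.0%, against a median of 58.0% for all promoters. Both strands were searched, matches of different motifs may overlap, and a match or its lack in these windows describes the letters only.

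High density was compared with low density to ask which KLF transcripts moved as cells crowded. Of the 9 members tested, 2 were upregulated DEGs (KLF11 and KLF13) and 1 was a downregulated DEG (KLF7), while 16.1% of the 17672 genes tested were DEGs (10.7% up and 5.47% down). An adjusted p below 0.05 without the size threshold was reached by 6 of the 9, against 39.7% of all genes. The FPKM of the groups did not overlap for 7 of the 9, against 70.2% of all genes, which is near the background. The median log2 fold change of the members was 0.07, and that of all genes tested 0.00.

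KLF13, a SIN3A-binding factor known from T-cell chemokine expression (GRCh37 15:31619038-31727868, plus strand, overlapping the pseudogene UBE2CP4), stood at 5.20 and 5.31 FPKM at low density and at 7.49 and 8.19 FPKM at high density. Both crowded libraries were thus well above both low-density libraries, with a log2 fold change of 0.52 ± 0.07 (adjusted p = 2.95e-06, edgeR). KLF11, the TGF-β-inducible relative of KLF10 (GRCh37 2:10182976-10194963, plus strand, with an antisense lncRNA), stood at 2.05 and 2.53 FPKM at low density and 3.26 and 3.61 FPKM at high density. The libraries did not overlap and the log2 fold change was 0.52 ± 0.11 (adjusted p = 7.47e-04, edgeR).

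KLF7, an activator known from neurite outgrowth (GRCh37 2:207938861-208038580, minus strand, overlapping 4 noncoding genes), moved the other way. It was at 3.27 and 3.31 FPKM at low density and at 2.65 and 2.10 FPKM at high density, and its log2 fold change was -0.53 ± 0.09 (adjusted p = 2.26e-04, edgeR). The second crowded library was the lower of the pair. All 3 calls lie just past the size threshold: without that library the values were -0.36 for KLF7, 0.46 for KLF11 and 0.46 for KLF13, and no member was a DEG. Without the first low-density library KLF11 had a log2 fold change of 0.39 and was not a DEG either.

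Smaller shifts were seen in a further 3 members whose adjusted p passed but whose size did not. KLF10, the TGF-β-inducible early gene, was at 7.46 and 7.56 FPKM at low and 6.17 and 6.12 FPKM at high density (log2 fold change -0.35 ± 0.08, adjusted p = 0.00117, edgeR). KLF16 (GRCh37 19:1852398-1863578, minus strand, with 2 antisense lncRNAs) was at 14.1 and 16.0 against 13.0 and 12.3 FPKM (-0.31 ± 0.07, adjusted p = 0.00157, edgeR). KLF6, an early-response gene and tumour suppressor (GRCh37 10:3818188-3827473, minus strand), was at 4.09 and 4.08 against 5.58 and 4.87 FPKM (0.30 ± 0.08, adjusted p = 0.00684, edgeR). KLF16 without the second low-density library, and KLF6 without the first high-density library, no longer passed the adjusted p. With single libraries left out the log2 fold change of KLF16 ran from -0.39 to -0.22 and that of KLF6 from 0.19 to 0.41. Of the 4 SIN3A-binding members, the means of KLF11 and KLF13 were thus higher and those of KLF10 and KLF16 lower in crowded hESCs. The FPKM of the low- and high-density groups did not overlap for any of the 4, as for 70.2% of all genes tested.

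The naive-state members did not pass the test. KLF4 (GRCh37 9:110247133-110252763, minus strand, with an antisense lncRNA) was at 1.70 and 1.77 FPKM at low density and 2.02 and 1.76 FPKM at high density, so that the groups overlapped, with a log2 fold change of 0.07 ± 0.15 and an adjusted p of 0.753 (edgeR). KLF5 (GRCh37 13:73629114-73651679, plus strand) was at 0.711 and 0.578 against 0.703 and 0.911 FPKM, also overlapping (0.28 ± 0.21, adjusted p = 0.322, edgeR, with 0.083 to 0.44 when single libraries were left out). KLF3 (GRCh37 4:38665818-38703138, plus strand, overlapping KLF3-AS1) was at 4.26 and 4.20 against 4.63 and 4.52 FPKM, with no overlap in FPKM but an adjusted p of 0.583 (0.06 ± 0.07, edgeR).

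Among other KLF and SP genes, 12 were tested and 4 were upregulated DEGs at high density, with none downregulated. KLF15, a regulator of glucose and amino acid metabolism known as a glucocorticoid target, moved from 1.94 and 2.46 FPKM to 6.21 and 6.64 FPKM, a log2 fold change of 1.48 ± 0.12 (adjusted p = 4.78e-09, edgeR). SP8, a limb and forebrain factor, rose from 0.392 and 0.388 to 1.06 and 1.58 FPKM (1.70 ± 0.21), and KLF9, a glucocorticoid- and thyroid-hormone-induced relative of KLF13, from 0.127 and 0.131 to 0.302 and 0.421 FPKM (1.40 ± 0.27). SP7, the osteoblast factor, was called from a mean of 11.5 reads per library (1.68 ± 0.62, adjusted p = 0.0354), a level too low for its size to be read closely. Without the first low-density or the second high-density library it was not a DEG (log2 fold change down to 1.13, adjusted p up to 0.286), and DESeq2 called 3 genes of this list. The remaining 8 were not DEGs, with log2 fold changes of 0.37 for KLF8, 0.35 for KLF1, -0.04 for KLF12, 0.12 for SP1, 0.15 for SP2, -0.02 for SP3, 0.25 for SP4 and 0.55 for SP6. An adjusted p below 0.05 was reached by 6 of the 12, against 39.7% of all genes, among them KLF8 (0.00340) and SP4 (0.00564, edgeR). With single libraries left out KLF1 ran from 0.073 to 0.66, SP1 from 0.070 to 0.18 and SP2 from 0.037 to 0.26. SP1 and SP3 were the most abundant of them, at 14.8 to 17.6 and 11.4 to 11.8 FPKM.

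ETV4 KD was compared with shControl to ask which KLF transcripts follow the loss of ETV4. Of the 10 members tested, 3 were upregulated DEGs (KLF3, KLF4 and KLF7) and 0 were downregulated, while 13.0% of the 17879 genes tested were DEGs (5.88% up and 7.10% down). An adjusted p below 0.05 was reached by 4 members, against 21.5% of all genes. The FPKM of the groups did not overlap for 5 of the 10, against 63.3% of all genes. The members' median log2 fold change was 0.24, and that of all genes tested was 0.00.

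KLF4 moved most. It stood at 1.15 and 0.864 FPKM with shControl (213 and 148 reads) and at 1.98 and 2.65 FPKM with shETV4 (356 and 462 reads). Both knockdown libraries lay above both controls, with a 2.31-fold higher level, a log2 fold change of 1.21 ± 0.23 and an adjusted p of 0.00977 (edgeR). The call held in 10 of 12 other settings, although the adjusted p alone, among them, could not lose it. It was lost with limma on FPKM over all genes and with edgeR's test against a log2 fold change of 0.5 (glmTreat, adjusted p = 0.0873). KLF4 after knockdown was still among the less abundant members, below KLF16, KLF10, KLF3, KLF6, KLF13 and KLF7 in its group mean.

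KLF7 stood at 3.39 and 3.22 FPKM with shControl and at 5.01 and 5.09 FPKM with shETV4. The pairs were tight and far apart, with a log2 fold change of 0.61 ± 0.09 (adjusted p = 0.00357, edgeR). KLF3 stood at 4.97 and 4.95 FPKM with shControl and 7.03 and 7.21 FPKM with shETV4, a log2 fold change of 0.53 ± 0.09 (adjusted p = 0.00597, edgeR). Reads of KLF3 and KLF3-AS1 can be told apart only if they were counted by strand. Without the second shETV4 library its log2 fold change was 0.48, below the size threshold. Against a log2 fold change of 0.5 (edgeR, glmTreat) the adjusted p was 0.419 for KLF7 and 0.975 for KLF3. Their calls held in 9 and 7 of 12 other settings, again with the adjusted p alone, which could not lose them, among these.

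KLF13 was lower after knockdown, at 7.82 and 7.11 FPKM with shControl and 6.04 and 4.86 FPKM with shETV4, without overlap. Its log2 fold change of -0.45 ± 0.11 had an adjusted p of 0.0218 (edgeR) and did not reach the size threshold. Without the second shControl library, or without the first shETV4 library, it did, at -0.52 and -0.59. Without the first shControl library the adjusted p was 0.128, with a log2 fold change of -0.37. The second shETV4 library was the lower of its pair.

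The other 6 members did not pass. KLF2 (GRCh37 19:16435637-16439496, plus strand) had a log2 fold change of 0.63 ± 0.55 (adjusted p = 0.449, edgeR) on its few reads, and its groups overlapped. KLF5 was at 1.58 and 1.26 against 1.82 and 1.58 FPKM (0.26 ± 0.18, adjusted p = 0.332). KLF6 was at 6.40 and 6.66 against 6.57 and 6.18 FPKM (-0.03 ± 0.09, adjusted p = 0.850). The groups of KLF5 and of KLF6 overlapped. KLF10 was at 9.48 and 9.64 against 9.13 and 9.05 FPKM (-0.07 ± 0.09, adjusted p = 0.625). KLF11 was at 2.44 and 2.06 against 2.14 and 1.93 FPKM (-0.14 ± 0.14, adjusted p = 0.515), and KLF16 at 9.94 and 11.2 against 11.2 and 13.4 FPKM (0.22 ± 0.12, adjusted p = 0.213). Only KLF10 of these 6 had groups that did not overlap in FPKM. With single libraries left out the log2 fold change of KLF2 ran from 0.021 to 1.10, that of KLF5 from 0.099 to 0.44 and that of KLF16 from 0.059 to 0.38. The adjusted p of KLF16 was 0.0117 without the first shETV4 library, with the size still below the threshold.

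None of the 13 other KLF and SP genes tested was a DEG after knockdown by edgeR or by DESeq2, and 4 had an unadjusted p below 0.05 in edgeR. KLF15 stood at 4.22 and 4.45 FPKM with shControl and 5.27 and 6.10 FPKM with shETV4 (0.40 ± 0.13, adjusted p = 0.0623), and KLF9 at 0.735 and 0.561 against 0.486 and 0.305 FPKM (-0.71 ± 0.26, adjusted p = 0.0850). SP2 (0.37 ± 0.12, adjusted p = 0.0559) and KLF18, with a mean of 12.25 reads (-1.76 ± 0.67, adjusted p = 0.0957), were the further 2. With single libraries left out, 3 of these genes became DEGs. Without the second shControl or the first shETV4 library KLF9 did (log2 fold change down to -1.05, adjusted p down to 0.0127), as did KLF18 on its few reads (down to -3.09, adjusted p down to 0.0304), and KLF15 did without the first shETV4 library (0.53, adjusted p = 0.00875). The others had log2 fold changes of 0.48 for KLF1, -0.17 for KLF8, 0.05 for KLF12, -0.24 for SP1, -0.14 for SP3, -0.17 for SP4, 0.07 for SP6, -1.12 for SP7 and 0.20 for SP8. With single libraries left out KLF8 ran from -0.30 to -0.052, SP1 from -0.38 to -0.11 and SP3 from -0.22 to -0.068. Likewise SP4 ran from -0.29 to -0.059, SP7 from -1.61 to -0.73 and SP8 from 0.10 to 0.31.

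The responses to crowding and to ETV4 KD were then set against each other in a joint fit of all 8 libraries, which tests the difference of the log2 fold changes gene by gene. The experiments have separate controls, whose levels differed for some members. Low-density and shControl means were 5.25 and 7.46 FPKM for KLF13 and 1.74 and 1.01 FPKM for KLF4, but 3.29 and 3.31 FPKM for KLF7. The responses of 7 of the 9 members differed at an adjusted p below 0.05, against 38.5% of the 17790 genes tested. KLF7 fell with crowding and rose with knockdown, and the difference was -1.14 ± 0.14 (adjusted p = 1.04e-04, edgeR). KLF13 rose with crowding and had a lower value with knockdown, with a difference of 0.97 ± 0.13 (adjusted p = 1.54e-04, edgeR). For these 2 members the log2 fold changes of the experiments had opposite signs. The FPKM of their groups did not overlap at either comparison, as for 70.2% of all genes with density and 63.3% with knockdown.

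KLF4 and KLF3 rose with knockdown, had log2 fold changes of 0.07 and 0.06 with crowding, and differed between the experiments (-1.15 ± 0.28, adjusted p = 0.00602, and -0.48 ± 0.11, adjusted p = 0.00387, edgeR). KLF11 and KLF16 differed by 0.66 ± 0.19 (adjusted p = 0.0142) and -0.54 ± 0.15 (adjusted p = 0.0124). Each of these calls held with 5 of 8 single libraries left out. KLF11 lost it without the first low-density, second high-density or first shControl library (lowest difference 0.52, adjusted p up to 0.0804). KLF16 lost it without the second low-density, second high-density or first shControl library (adjusted p up to 0.0737). KLF10 lay just inside the threshold with -0.29 ± 0.11 (adjusted p = 0.04995, edgeR), and its call held in 1 of 5 other settings and with 1 of 8 single libraries left out (adjusted p up to 0.0757 and 0.1425). KLF6 missed it (0.32 ± 0.12, adjusted p = 0.0518), and passed in 1 of 5 other settings, with the filter of at least 10 counts, and without the second high-density or the first shETV4 library (0.21 to 0.43 with single libraries left out, adjusted p down to 0.0256). For KLF5 the difference of 0.01 ± 0.27 (adjusted p = 0.977, edgeR) leaves room for a sizeable effect either way. Of the other family members, KLF15 (1.08 ± 0.18, adjusted p = 7.42e-04), KLF9 (2.10 ± 0.38) and SP8 (1.49 ± 0.30) also had higher log2 fold changes with crowding than with knockdown. The ETV4 transcript itself was lower in both experiments, to different extents, as given above. The study reports that crowding lowers ETV4 protein and attributes this to reduced protein stability. Protein was not measured in these libraries, so the transcript values do not tell which experiment lost more ETV4 protein.

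**Figure D2:**
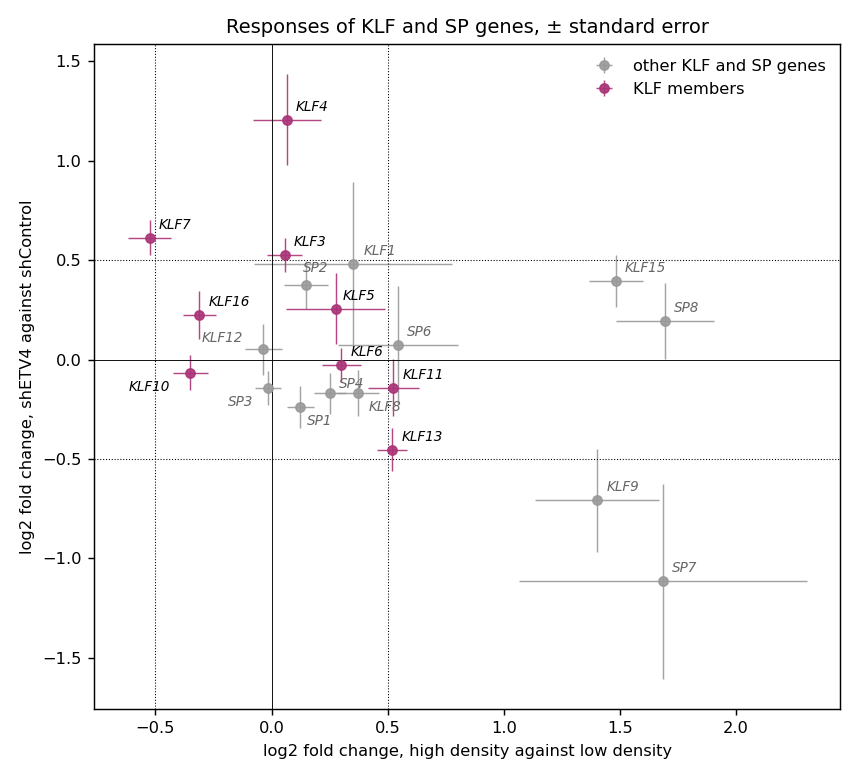
Log2 fold change of each KLF and SP gene tested in both tables, high against low density on the horizontal axis and shETV4 against shControl on the vertical axis, with bars of ± 1 SE and dotted lines at the size threshold of 0.5. KLF4 lies high on the vertical axis at 1.21 with 0.07 on the horizontal, KLF7 (-0.53 and 0.61) and KLF13 (0.52 and -0.45) lie in opposite corners, and KLF15 and SP8 lie to the right.

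As a description across the 8 libraries, with each table centred on its own mean, log2 CPM (reads scaled to library size) of KLF3 and KLF4 had a Pearson correlation of 0.96, KLF11 and KLF13 of 0.84, KLF7 and KLF13 of -0.93, KLF13 and KLF16 of -0.91 and KLF6 and KLF10 of -0.84. These points share libraries and conditions. Among 12537 genes with a mean of at least 1 FPKM in both tables, the 3 most like KLF4 were GIN1 (0.993), OTUD5 (0.989) and PEX19 (0.988). The 3 most like KLF6 were BAIAP3 (0.975), HNRNPA1P16 (0.971) and TMPRSS2 (0.969), and the 3 most like KLF5 were PAFAH2 (0.971), CRNDE (0.949) and TPT1-AS1 (0.944). HNRNPA1P16 is a pseudogene of HNRNPA1 and may share its reads.

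Cofactors and ubiquitin ligases of the KLFs were read next. Of 12 KLF cofactors, which include the CtBP, SIN3, histone deacetylase, acetyltransferase and nuclear corepressor genes, 0 were DEGs at high density by edgeR or DESeq2 (4 with an unadjusted and 3 with an adjusted p below 0.05 in edgeR, median log2 fold change 0.06), and 0 were DEGs after ETV4 KD by either tool (0 with an unadjusted p below 0.05, median 0.07). Of 10 ubiquitin ligases reported to act on KLF proteins, such as WWP1 and FBXW7, 0 were DEGs in either comparison by either tool (3 with an unadjusted and 1 with an adjusted p below 0.05 in each, medians 0.05 and -0.06). Below the size threshold, 3 cofactors and 1 ligase had an adjusted p below 0.05 at high density, among them HDAC1 (0.32 ± 0.06) and CREBBP (-0.34 ± 0.06), and 1 ligase, BTRC (-0.39 ± 0.10), after ETV4 KD. Of all genes tested, 39.7% had an adjusted p below 0.05 at high density and 21.5% after ETV4 KD. WWP1 was at 11.7 and 11.3 FPKM at low and 12.4 and 13.7 FPKM at high density, and FBXW7 at 4.51 and 4.07 against 4.45 and 5.01 FPKM. KLF protein was not measured in these libraries.

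The MEKK3-ERK5-MEF2 genes and the cerebral cavernous malformation genes that restrain them were likewise mostly below the thresholds. PIEZO1, a mechanically gated cation channel that belongs to neither group, was part of the same list. At high density 1 of 11 was a DEG, and this was PIEZO1, which fell from 12.4 and 12.5 to 9.41 and 8.54 FPKM (log2 fold change -0.53 ± 0.06, adjusted p = 7.57e-07, edgeR). After ETV4 KD 1 of 12 was a DEG, HEG1, the receptor of the cavernous malformation complex, which fell from 1.33 and 1.45 to 0.796 and 0.703 FPKM (-0.89 ± 0.13, adjusted p = 0.00357, edgeR). At high density 4 of the 11 had an adjusted p below 0.05 in edgeR, PIEZO1 among them, against 39.7% of all genes. Below the size threshold these were MAP3K2 (0.27 ± 0.08), MAP2K5 (0.32 ± 0.11) and HEG1 (-0.34 ± 0.09). ERK5 (MAPK7) was at 7.65 and 7.87 FPKM at low and 7.82 and 7.53 FPKM at high density. The list's medians were -0.05 and 0.01.

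Naive-state genes were set beside KLF4 and KLF5. At high density 5 of the 10 tested were upregulated DEGs and 1 was downregulated, with a median log2 fold change of 0.77, while the values of KLF4 and KLF5 did not pass. The downregulated gene was NR5A2, which fell from 2.44 and 2.41 to 1.48 and 1.40 FPKM (-0.81 ± 0.11). FGF4, a growth factor of the early epiblast, rose from 1.09 and 1.15 to 5.68 and 6.26 FPKM (2.36 ± 0.11), DPPA5 from 1.73 and 1.50 to 4.00 and 3.69 FPKM (1.19 ± 0.23), SUSD2, a surface marker of naive cells, by 1.16 ± 0.14 and NLRP7 by 0.94 ± 0.19. After ETV4 KD 0 of the 11 tested were upregulated and 5 were downregulated, with a median of -0.39, in the libraries in which KLF4 rose. DPPA5 fell from 2.49 and 2.46 to 0.900 and 0.565 FPKM (-1.74 ± 0.31), TFCP2L1, a naive-state factor, from 2.17 and 1.82 to 1.18 and 0.751 FPKM (-1.05 ± 0.19) and SUSD2 by 0.99 on the log2 scale. ZFP42, the most abundant of the list, was no DEG in either comparison. It was lower at high density, with 94.4 and 97.8 against 85.9 and 77.8 FPKM (-0.30 ± 0.06, adjusted p = 4.45e-04, edgeR). In the knockdown libraries it was at 67.4 to 77.9 FPKM.

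Primed-state genes gave mixed counts. At high density 2 of 11 were upregulated (among them SALL3 by 1.07 ± 0.07) and 3 were downregulated, among them DUSP6, an ERK phosphatase and ERK target (-1.67 ± 0.07), and VIM, vimentin (-1.07 ± 0.06). After ETV4 KD 4 of 11 were upregulated, led by OTX2, a forebrain and epiblast factor that rose from 2.50 and 2.81 to 15.9 and 19.3 FPKM (2.73 ± 0.13), ZIC2 (0.95 ± 0.09) and ZIC5 (0.83 ± 0.11), and 2 were downregulated, among them DUSP6 (-0.97 ± 0.08). The medians were -0.13 and -0.07. Of the 12 core pluripotency markers, 0 were DEGs at high density by edgeR or DESeq2. Of these markers 8 had an unadjusted and an adjusted p below 0.05 in edgeR with a change below the size threshold, against 39.7% of all genes with such an adjusted p at any size. After ETV4 KD LIN28A was up (0.51 ± 0.06) and DNMT3B and TDGF1 down (-0.82 ± 0.07 each).

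KLF4, KLF6 and KLF10 are known as early-response genes, so genes of that kind were set beside them. At high density 2 of 16 immediate-early genes were upregulated and 4 downregulated (median -0.19), with IER3 falling from 17.5 and 17.8 to 5.46 and 4.32 FPKM (-1.91 ± 0.11) and EGR1, a zinc-finger factor that also binds GC-rich DNA, rising from 1.13 and 1.20 to 3.18 and 3.04 FPKM (1.36 ± 0.13). After ETV4 KD 9 of 17 were upregulated and 1 was downregulated (median 0.75). EGR1 moved most, from 2.01 and 2.08 to 31.9 and 23.3 FPKM (3.76 ± 0.14, adjusted p = 4.65e-05, edgeR), followed among the more abundant by FOS (1.65 ± 0.17), FOSL1 (1.40 ± 0.16) and JUNB (1.17 ± 0.23). In the same libraries KLF4 rose, while KLF6 and KLF10 had log2 fold changes of -0.03 and -0.07.

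KLF10 and KLF11 are named for their induction by TGF-β, so early genes of that pathway were set beside them. At high density 4 of 10 were downregulated and 0 upregulated (median -0.37), among which SMAD7, the pathway's inhibitory SMAD, fell by 1.37, BAMBI by 1.04 and PMEPA1 by 0.95 on the log2 scale. KLF10 was lower and KLF11 higher in those libraries. After ETV4 KD 2 of 10 were upregulated, among them TGIF1 (0.54 ± 0.08), and 2 were downregulated, among them TGFBR2, the type II receptor (-0.60 ± 0.15), with a median of -0.12.

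YAP targets, read out because YAP and its TEAD partners also respond to density, were downregulated in 6 of 11 cases at high density and upregulated in 0 (median -0.61). CCN1 fell from 33.2 and 33.8 to 15.0 and 12.9 FPKM (-1.32 ± 0.07) and CCN2 from 45.1 and 44.7 to 20.0 and 17.9 FPKM (-1.30 ± 0.06), with AMOTL2 (-1.02 ± 0.07) and AMOTL1 (-0.85 ± 0.06) next. After ETV4 KD 5 of 12 were upregulated and 0 downregulated (median 0.45), led by AXL, a receptor tyrosine kinase (1.15 ± 0.08), and AJUBA (1.09 ± 0.14), followed by F3, tissue factor (0.75 ± 0.13), and NUAK2 (0.63 ± 0.15). Among the members KLF7 was lower at high density and higher after knockdown, while KLF13 had a log2 fold change of 0.52 at high density and -0.45 after knockdown. A link of any member to YAP was not tested.

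**Figure D3:**
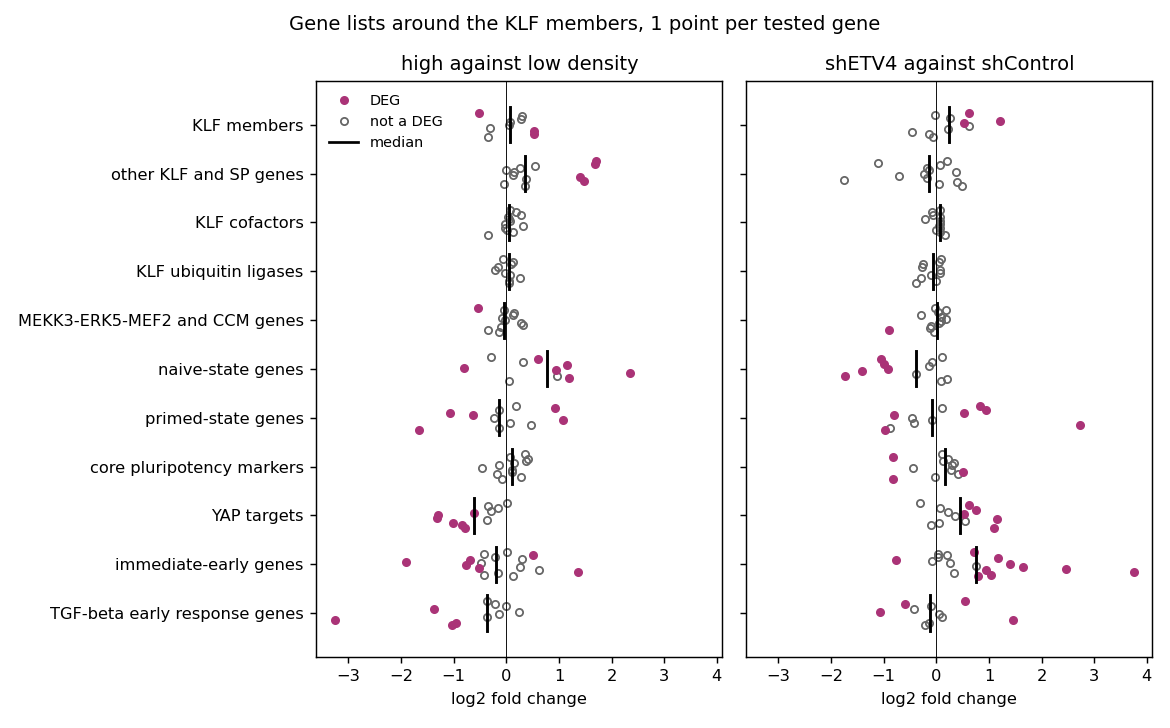
Log2 fold changes of the tested genes of each list, high against low density on the left and shETV4 against shControl on the right, with filled points for DEGs, open points for the rest and a bar at the list's median. The KLF cofactor and ubiquitin ligase medians lie between -0.06 and 0.07, the naive-state medians are 0.77 and -0.39, and the YAP target medians are -0.61 and 0.45.

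Markers of other cell types moved in places beside these results, and their part in them was not tested. At high density 2 of 4 mesendoderm markers tested were downregulated and 0 upregulated, with CER1, a NODAL antagonist, falling from 3.24 and 3.82 to 0.443 and 0.189 FPKM (-3.53 ± 0.29). Of 6 neuroectoderm markers tested, 1 was upregulated and 2 were downregulated, among them SIX6 (1.20 and 0.898 against 0.206 and 0.280 FPKM), while DESeq2 called 1 of this list. Of 6 endothelial markers 1, TEK, was downregulated (-1.75 ± 0.11). The summed endothelial level was higher at high density, at 43.2 and 45.1 against 53.8 and 55.7 FPKM, and KDR (0.41 ± 0.06, adjusted p = 4.6e-05, edgeR) and EGFL7 (0.27 ± 0.09, adjusted p = 0.0216, edgeR) had higher values below the size threshold. No trophectoderm and amnion marker of 4 was a DEG by edgeR or DESeq2, but 1, KRT7, passed both the unadjusted and the adjusted p of 0.05 with a higher value below the size threshold (0.42 ± 0.16, adjusted p = 0.0386, edgeR) and all 4 lay above 0 on the log2 fold change scale. After ETV4 KD CER1 fell by 1.09, DCX by 1.95, GABRP by 1.33 and KDR by 0.75 on the log2 scale. Their lists had 1 upregulated of 3, 0 of 5, 0 of 4 and 0 of 7, and downregulated counts of 1, 1, 1 and 2. GATA4, the upregulated mesendoderm marker, rose by 1.73 on the log2 scale, from a mean of 0.0590 to 0.204 FPKM. Of the 7 endothelial markers 3 lay above 0 and 4 below. Those above were TEK (0.34 ± 0.11), TIE1 (0.41 ± 0.18) and EGFL7 (0.28 ± 0.10), none of them a DEG. DESeq2 called 1 of the endothelial list. The summed levels of these lists are given above, and the core pluripotency markers summed to between 2813 and 3712 FPKM in any library.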

How the data were processed

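Poly-A RNA of H9 hESCs was sequenced from stranded libraries. Per the labels and methods, the authors used Trimmomatic for trimming, HISAT2 2.1.0 for mapping to GRCh37 and StringTie 2.1.3b for known transcripts. In 1 table per experiment the authors deposited read counts per gene, not normalized, and FPKM values, normalized by transcript length and mapped reads. The tables list genes with at least 1 read in every library. They also hold the authors' fold changes and p-values, which were not used, as were 16 further columns of per-sample values.

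Groups were taken from the sample titles, which call the low-density libraries small and the high-density libraries crowded. The columns headed Test in the knockdown experiment were taken as shETV4. The counts were tested within each table by the robust quasi-likelihood test of edgeR 4.0.16 (R 4.3.3), after filterByExpr and TMM scaling, p-values were adjusted by Benjamini-Hochberg over every gene tested, and the responses were compared in a joint fit. Each SE was obtained from the size of the log2 fold change and the root of its F statistic. Alternatives used DESeq2 1.42.0, limma 3.58.1 on log2(FPKM + 0.5) and other settings. The code was tested on simulated data. Correlations used log2 CPM with a prior count of 2. Gene positions are from a GRCh37 annotation and promoter sequences from RefSeq.

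The members and lists were chosen with earlier results of these data known. Named were all members, ETV4, every other tested KLF and SP gene, up to 4 DEGs per list and comparison with a mean of at least 1 FPKM in either group, by size, and the 3 genes most like KLF4, KLF5 and KLF6. Values of some genes that the rule selects are not reported here. KLF2, in 1 table only, was not given such a comparison. ZFP42, POU5F1, MAPK7, WWP1, FBXW7, HDAC1, CREBBP, BTRC and EGFL7 were named as list examples outside this rule, after their values were seen. So were KDR, KRT7, MAP3K2, MAP2K5, HEG1 and NR5A2 at high density, and GATA4, TEK and TIE1 after ETV4 KD.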

Additional observations from a re-analysis of the deposited data

How the results depend on the processing

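The calls at high density rest on values close to the size threshold. The 3 DEGs among the members became 1 with limma on log2(FPKM + 0.5), with or without the filter on low values, 0 with limma on log2(FPKM + 1), 0 at an absolute log2 fold change over 1, 0 with edgeR's test against a log2 fold change of 0.5 (glmTreat) and 6 with the adjusted p alone, a setting chosen after seeing the data. With single libraries left out the count ran from 0 (without the second high-density library) to 3. After ETV4 KD the 3 DEGs became 1 with limma on log2(FPKM + 1), 1 with limma on log2(FPKM + 0.5) over all genes, 1 at an absolute log2 fold change over 1 and 0 with glmTreat, and ranged from 2 (without the second shETV4 library) to 4 with single libraries left out. Fold changes from log2(FPKM + pseudocount) understate those of low genes. The 7 members whose responses differed ranged from 4 (without the first shControl library) to 8 with single libraries left out. DESeq2, its size factors, no filter and a filter of at least 10 counts left 3, 3 and 6 to 7 members called.

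The replicate numbers did not pair the libraries (the correlation of same-numbered deviations was -0.02 at low and high density and 0.07 for shControl and shETV4). A fit with the replicate number as a block called 3, 3 and 6 members. Under this block KLF9 (log2 fold change -0.72) and KLF18 (-1.83) became DEGs after ETV4 KD. The members at a mean of 1 FPKM or more were 8, 8, 9 and 9 at low density, at high density, with shControl and with shETV4, with 8 for shControl without its first library.

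Directions turned only in values near 0. At high density KLF4 had a log2 fold change of -0.042 without the first high-density library (range 0.17 to -0.042 with single libraries left out). KLF12 had 0.016, 0.020, 0.013 and 0.016 with limma at pseudocounts of 0.5, 0.1 and 1 and at 0.5 over all genes, and lay between -0.10 and 0.033 when single libraries were left out. SP3 had 0.015, 0.016, 0.015 and 0.015 with the same limma settings and ranged from -0.031 to 0.0029. After ETV4 KD, with single libraries left out, KLF11 ranged from -0.26 to 0.0011, KLF12 from -0.12 to 0.20 and SP6 from -0.21 to 0.43. The difference for KLF5 ranged from -0.18 to 0.18. The causes were not tested. With 2 libraries in each group, leaving out 1 leaves a lone sample that is assumed to vary like the other group, and an exact permutation test could not give a p below 0.333.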
